A study of Mus musculus with 5 samples.

Results

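The genes described here move salt and water across the airway lining. They are Slc12a2, Cftr, Scnn1a, Scnn1b, Aqp1, Aqp4, Aqp5 and Kcnj15, and they were taken up by name, as every probe set whose platform annotation gives exactly 1 gene symbol that is one of these or a synonym. A probe set is a pool of short probes read together as 1 transcript. The rule found 10 probe sets of the 12422 used, from 5 of the 8 genes, where probe sets with 1 symbol name 8251 genes in all. No probe set was paired with Scnn1a, Scnn1b or Aqp5 in the annotation used, and these 3 genes were not analysed here.

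The RNA came from A-J mice and was labelled as lung, measured on 5 Affymetrix mouse arrays. Saline was put into the trachea in 2 of the samples and the cytokine IL-13, which drives mucus cell formation in airways, in the other 3. A number without a unit stands in each title (saline 6 and 48, IL-13 6, 18 and 48) and is used here with the treatment to name the array. Each combination is 1 array, and neither sex, age nor the number of animals behind an array is stated, so every p-value measures only the spread between these arrays. The array IL-13 6 also carries another title ending (s3) than the other arrays (s2), whose meaning is not given.

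Airway surface liquid is kept at a set depth by a balance of chloride secretion and sodium absorption, with water following through aquaporins. Slc12a2 (NKCC1) loads chloride into the cell across the basolateral membrane, Cftr lets it out at the apical membrane, and Scnn1a and Scnn1b are subunits of the apical epithelial sodium channel. Potassium channels such as the inward rectifier Kcnj15 (Kir4.2) hold the membrane voltage that drives chloride exit. In lung, Aqp1 is the water channel of endothelium and red blood cells, Aqp4 lies in the basolateral membrane of airway epithelium, and Aqp5 in the apical membrane of alveolar type I and gland cells. IL-13 signals through the transcription factor STAT6.

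Values are linear intensities, brought to 1 common 2% trimmed mean on all arrays. The floor was 55.3, the pooled 20th percentile, and values under it have no order and entered log2 at the floor. The test took the 7811 probe sets that exceeded 210.2, the pooled 40th percentile, on at least 2 arrays. Of the 10 member probe sets, 5 passed this filter, for Slc12a2, Aqp1, Aqp4 (2) and Kcnj15, and the other 5 are given as values without a test. Of those 5, 2 of Cftr lay below the floor on every array.

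The saline 6 array stood apart from the others. Its Pearson's r with the other arrays lay between 0.913 and 0.923 over tested probe sets (features of 1 array, not replicates), against up to 0.956 between other arrays. The summed intensity of 12 probe sets of salivary gland genes was 114699 on saline 6 and 924.4 to 1243.2 elsewhere. The label of lung was checked against alveolar type II genes (Sftpb, Sftpc, Sftpd and Slc34a2), whose summed intensity was 22197 on IL-13 18, 3219 on saline 6 and only 567.6 to 784.9 on the other 3. Most of the IL-13 18 sum was Sftpc (17179), while Sftpd read 174.8 there and was highest on IL-13 6 (217.1). Alveolar type I genes, 6 probe sets in sum, read 7560 on saline 48, the lowest, to 16702 on IL-13 18, the highest. Genes of club cells, the secretory cells of the airway, were bright throughout, with Scgb1a1 between 22024 and 31024. So were genes of tissue beside the trachea on all 5 arrays, among them the thyroid gene Tg (13170 to 25516) and the skeletal muscle gene Myh1 (17108 to 20346). In RNA of a whole tissue, fewer cells of a type and less RNA per cell cannot be told apart.

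The promoters are shown because they are the DNA next to these genes where a STAT6 site could lie. RefSeq sequences were used for 3 of the 5 measured genes (Cftr, Aqp1 and Kcnj15), each running from 250 bases before to 50 bases after the annotated start on the plus strand of build GRCm38.p6. They lie at chr6:18170437-18170736 for Cftr, chr6:55336049-55336348 for Aqp1 and chr16:95257308-95257607 for Kcnj15. Capitals mark a GC box (GGGCGG) or a TATA box (TATAAA) on either strand.
Cftr: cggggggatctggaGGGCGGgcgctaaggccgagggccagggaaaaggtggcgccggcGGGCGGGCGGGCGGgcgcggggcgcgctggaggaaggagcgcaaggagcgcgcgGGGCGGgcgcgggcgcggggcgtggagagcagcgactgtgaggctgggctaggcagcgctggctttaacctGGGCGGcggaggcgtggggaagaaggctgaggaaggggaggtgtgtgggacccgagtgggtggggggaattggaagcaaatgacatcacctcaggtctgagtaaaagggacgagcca
Aqp1: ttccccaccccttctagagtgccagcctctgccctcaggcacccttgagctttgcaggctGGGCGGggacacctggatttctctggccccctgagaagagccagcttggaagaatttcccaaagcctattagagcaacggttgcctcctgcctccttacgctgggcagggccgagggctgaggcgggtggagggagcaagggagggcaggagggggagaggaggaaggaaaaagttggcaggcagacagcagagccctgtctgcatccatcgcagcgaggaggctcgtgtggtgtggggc
Kcnj15: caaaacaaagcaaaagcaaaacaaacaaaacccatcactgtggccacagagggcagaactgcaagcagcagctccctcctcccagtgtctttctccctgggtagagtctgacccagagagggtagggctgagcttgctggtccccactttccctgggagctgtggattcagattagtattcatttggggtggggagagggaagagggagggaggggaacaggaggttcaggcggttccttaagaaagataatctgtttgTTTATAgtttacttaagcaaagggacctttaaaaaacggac

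None of the 3 windows holds the STAT6 motif (TTC, any 4 bases, then GAA), searched on both strands, which 6.95% of the 32851 RefSeq promoter windows of this length hold. The Cftr window holds 6 GC boxes, of which 3 overlap in 1 run, no TATA box, and 71.3% G and C, against a median of 52.7% over all windows. The Aqp1 window holds 1 GC box and 62.7% G and C. The Kcnj15 window has none, 49.7% G and C, and 1 TATA box on the minus strand just after the start site. Over all windows, 35.7% hold a GC box and 13.6% a TATA box. These are matches of letters and say nothing of whether a factor binds.

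No measured gene of salt and water transport passed the test between IL-13 and saline. By limma with Benjamini-Hochberg adjustment, 0 of the 5 tested member probe sets passed at 0.05, and none had an unadjusted p under 0.05. Over all probe sets, 4 of 7811 passed (0.0512%). The members' log2 differences (IL-13 minus saline) had a median of -0.09, where the median of all tested probe sets was 0.04. Their median size regardless of sign was 0.16, against 0.2 for all. All 5 tested members had IL-13 and saline arrays that overlapped. Of all tested probe sets, 14.8% had every IL-13 array above both saline arrays and 11% had every one below.

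**Figure D1:**
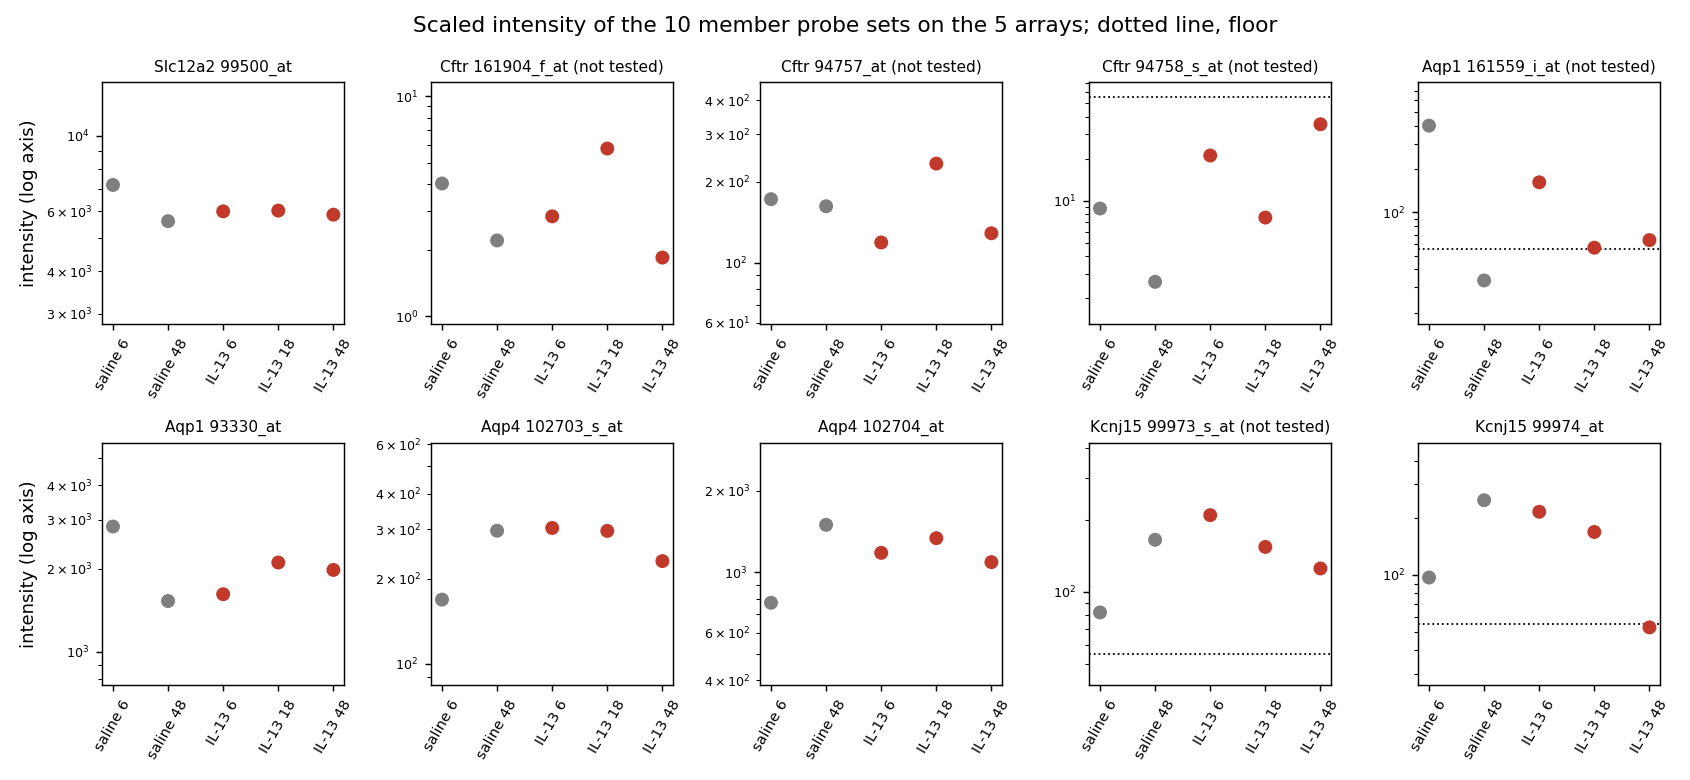
Each panel is 1 of the 10 member probe sets; the vertical axis is scaled intensity on a log axis whose range differs by panel, and the horizontal axis gives the 5 arrays (grey, saline; red, IL-13). The dotted line is the floor of 55.3 where it falls in the panel; 2 Cftr probe sets lie below it on every array, and the grey and red points overlap in all 5 tested panels.

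Slc12a2, the sodium-potassium-chloride cotransporter that supplies chloride for secretion, was the steadiest across arrays of the members above the floor. Probe set 99500_at read 7169 on saline 6 and 5616 on saline 48, against 5999 (IL-13 6), 6029.6 (IL-13 18) and 5867 (IL-13 48). All 3 IL-13 arrays lay between the saline arrays, and the span over the 5 arrays was 1.28-fold. The mean intensity was 6393 ± 1098 (SD, n = 2) with saline and 5965 ± 86.7 (SD, n = 3) with IL-13. The log2 difference was -0.09 (SE 0.18, 95% interval -0.52 to 0.34, limma adjusted p 0.904). Without saline 6 it was 0.09, so its sign rests on that array. Slc12a2 is also the chloride loader of salivary acinar cells, and the array with the highest Slc12a2 was the one with the bright salivary genes. The part of those cells in the Slc12a2 reading was not tested.

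Cftr, the cyclic AMP-regulated chloride channel, was dim. Its probe set 94757_at read 172.3 on saline 6 and 162.2 on saline 48, against 119.1 (IL-13 6), 233.3 (IL-13 18) and 128.8 (IL-13 48). IL-13 18 was the highest and IL-13 6 the lowest, with the saline arrays between them, so the treatments overlapped. It exceeded 210.2 on 1 array only and was not tested. Its log2 difference was -0.53 in the pair at 6 and -0.33 in the pair at 48, with 1 array against 1 and no test. IL-13 18 minus the saline mean was 0.48. IL-13 18 was also the array with the highest alveolar type II sum, from a cell type known to make Cftr. The part of those cells in this reading was not tested. The probe sets 161904_f_at (1.85 to 5.79) and 94758_s_at (2.62 to 35.4) lay below the floor on all 5 arrays, so no order or fold is given for them. The endings f_at and s_at mark probes that related transcripts may share.

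Aqp1, the water channel of endothelium and red blood cells, was highest on saline 6. Probe set 93330_at read 2834 on saline 6 and 1527 on saline 48, against 1616 (IL-13 6), 2102 (IL-13 18) and 1977 (IL-13 48). The IL-13 arrays all lay between the saline arrays, which themselves stood 1.86-fold apart. The log2 difference was -0.14 (SE 0.29, 95% interval -0.85 to 0.56, limma adjusted p 0.907), and it was 0.31 without saline 6 and -0.59 without saline 48. The second Aqp1 probe set, 161559_i_at, read 399.9 on saline 6 and 33.5 on saline 48, against 161.4 (IL-13 6), 56.7 (IL-13 18) and 64.0 (IL-13 48). Both arrays of title number 6 were above the rest, and saline 48 lay below the floor. It did not pass the filter, and its ending i_at marks a set with fewer unique probes than the design required.

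The red blood cell sum was also higher on the arrays of title number 6. The summed intensity of 3 such probe sets (Hba-a1, Alas2 and Slc4a1) was 29009 on saline 6 and 30440 on IL-13 6, against 18804 on saline 48, 21687 on IL-13 18 and 20771 on IL-13 48. Hba-a1, a haemoglobin chain, carried that order, while Alas2 and Slc4a1 did not share it. Endothelial genes, 13 probe sets of 8 genes in sum, read 10225 on saline 6 and 11121 on IL-13 18, against 8480 to 8833 on the other arrays. Saline 6 and IL-13 18 were also the highest pair on Aqp1 93330_at, and the arrays of title number 6 on 161559_i_at. Only 3 of the 13 endothelial probe sets (of Cdh5, Tie1 and Sox17) had that highest pair themselves, and Kdr, for example, was highest on saline 48. The heart muscle sum of 8 probe sets had the same highest pair as 93330_at, with 38340 on saline 6 and 32978 on IL-13 18 against 16522 to 25703. The part of these cell types in the Aqp1 readings was not tested.

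Aqp4, the basolateral water channel of airway epithelium, was lowest on saline 6 on both of its probe sets. The brighter, 102704_at, read 773.1 on saline 6 and 1498 on saline 48, against 1181 (IL-13 6), 1337 (IL-13 18) and 1091 (IL-13 48). As for Aqp1 and Slc12a2, the IL-13 arrays all fell between the saline arrays. The mean was 1135 ± 512.2 (SD, n = 2) with saline and 1203 ± 124.5 (SD, n = 3) with IL-13, and the log2 difference was 0.16 (SE 0.30, 95% interval -0.56 to 0.87, limma adjusted p 0.898). The second probe set, 102703_s_at, read 168.6 on saline 6 and 296.0 on saline 48, against 302.6 (IL-13 6), 295.5 (IL-13 18) and 230.9 (IL-13 48). Saline 6 was again the lowest, and saline 48 stood among the IL-13 arrays. Its log2 difference was 0.30 (SE 0.28, 95% interval -0.38 to 0.97, limma adjusted p 0.787). Without saline 6 both turned negative, to -0.32 on 102704_at and -0.11 on 102703_s_at. Without saline 48 they were 0.63 and 0.70.

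Genes common to epithelium were also lowest on saline 6. The summed intensity of 6 probe sets (Epcam, Cdh1, Krt8, Krt19 and Cldn4) was 7089 there and 9073 to 10310 on the other 4 arrays, and 5 of the 6 had their lowest value there. Epcam, a surface protein of epithelial cells, read 581.8 on saline 6 and 779.2 to 1308 elsewhere. Aqp4 is also made by fast skeletal muscle and by parietal cells of the stomach. The skeletal muscle sum (11 probe sets) was highest on saline 6, at 130271, and lowest on saline 48, at 95370, the reverse of Aqp4 102704_at. Only 3 of the 11 were themselves highest on saline 6, and Myh1 and Tnnt3, for example, were highest on IL-13 48. The sum of stomach and oesophagus genes (7 probe sets) was lowest on saline 6, at 42290, and 49806 to 68127 elsewhere. Krt4, Krt13 and Tff2 made up nearly all of that sum, while the parietal cell gene Atp4a read 405.2 on saline 6 and 321.2 on saline 48, the reverse of Aqp4. The part of each of these in the Aqp4 readings was not tested.

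Kcnj15, the inward-rectifier potassium channel, differed most between arrays among the tested members. Probe set 99974_at read 96.9 on saline 6 and 247.6 on saline 48, against 215.2 (IL-13 6), 168.4 (IL-13 18) and 52.9 (IL-13 48), the last below the floor. The saline arrays lay 2.55-fold apart, and 2 of the IL-13 arrays fell between them, so the groups overlapped. The log2 difference was -0.30 (SE 0.65, 95% interval -1.86 to 1.27, limma adjusted p 0.914). It was 0.38 without saline 48, 0.30 without IL-13 48 and -0.97 without saline 6. The interval is wide, and changes of up to 2-fold in either direction lie inside it.

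The other Kcnj15 probe set, 99973_s_at, read 82.1 on saline 6 and 165.2 on saline 48, against 209.3 (IL-13 6), 154.2 (IL-13 18) and 125.4 (IL-13 48). It reached 210.2 on no array and was not tested. Both probe sets were higher on IL-13 6 than on saline 6, 2.22-fold on 99974_at and 2.55-fold on 99973_s_at, and neither higher value reached the pooled median of 343 required for a call. At 48 they parted, with IL-13 48 at least 4.48-fold lower than saline 48 on 99974_at and 1.32-fold lower on 99973_s_at.

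**Figure D2:**
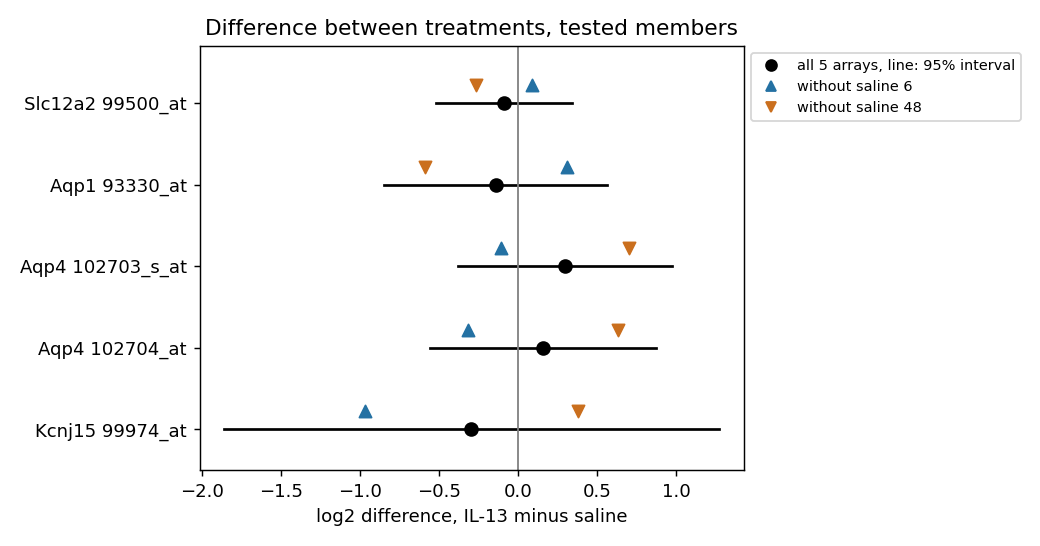
The horizontal axis is the log2 difference, IL-13 minus saline, of the 5 tested member probe sets; black points and lines are the estimate and its 95% interval over all 5 arrays, and triangles the estimates without saline 6 (up) and without saline 48 (down). All 5 intervals hold 0. With 2 saline arrays the estimate is the average of its triangles, so their spread shows only how far the saline arrays differ.

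In matched pairs of 1 array against 1, a probe set counted as different when it was at least 2-fold apart and its higher value exceeded 343. At title number 6, 4 member probe sets reached that brightness (Slc12a2 99500_at, both of Aqp1 and Aqp4 102704_at). Of these, 1 was lower with IL-13 (Aqp1 161559_i_at, 2.48-fold) and 0 were higher, where 4.06% of all such probe sets were lower and 3.5% higher. That Aqp1 probe set exceeded 343 on saline 6 alone. Against saline 48, which lay below the floor, its log2 difference for IL-13 6 was 1.55, so its direction rests on the saline array used. At title number 48, 3 reached it and 0 differed, where 2.08% of all were lower and 1.13% higher. The brighter Aqp1 probe set was 0.57 times its saline value at 6 and 1.3 times at 48, and Aqp4 102704_at was 1.53 times its saline value at 6 and 0.729 times at 48. Slc12a2 was 0.837 times its saline value at 6 and 1.04 times at 48. Thus these 3 probe sets had opposite signs in the pairs, each by less than 2-fold, and whether the pairs differ was not tested.

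The extreme values of most members lay on the saline arrays. Of the 8 member probe sets above the floor on at least 1 array, saline 6 was the highest for 3 (Slc12a2 and both of Aqp1) and the lowest for 3 (both of Aqp4 and Kcnj15 99973_s_at). Saline 48 was the highest for 2 of the 8 (Aqp4 102704_at and Kcnj15 99974_at) and the lowest for 3 (Slc12a2 and both of Aqp1). Among the 5 tested, each saline array was the highest for 2 and the lowest for 2. Over all tested probe sets saline 6 was the highest for 21.4% and the lowest for 32.1%, and saline 48 for 20.3% and 18.4%, so such positions are common. For 4 of the 5 tested members the saline arrays had a larger SD of log2 values than the IL-13 arrays, the exception being Kcnj15 99974_at. The share over all tested probe sets was not worked out, so this count does not set the members apart from other probe sets. Saline 6 was the lowest or highest array for 4 of the 5 tested members (80%), against 53.6% of all tested probe sets. Saline 48 was so for 4 of the 5 (80%), against 38.8% of all. The share of all tested probe sets whose IL-13 arrays lay between the saline arrays was not worked out, and these shares were not tested.

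**Figure D3:**
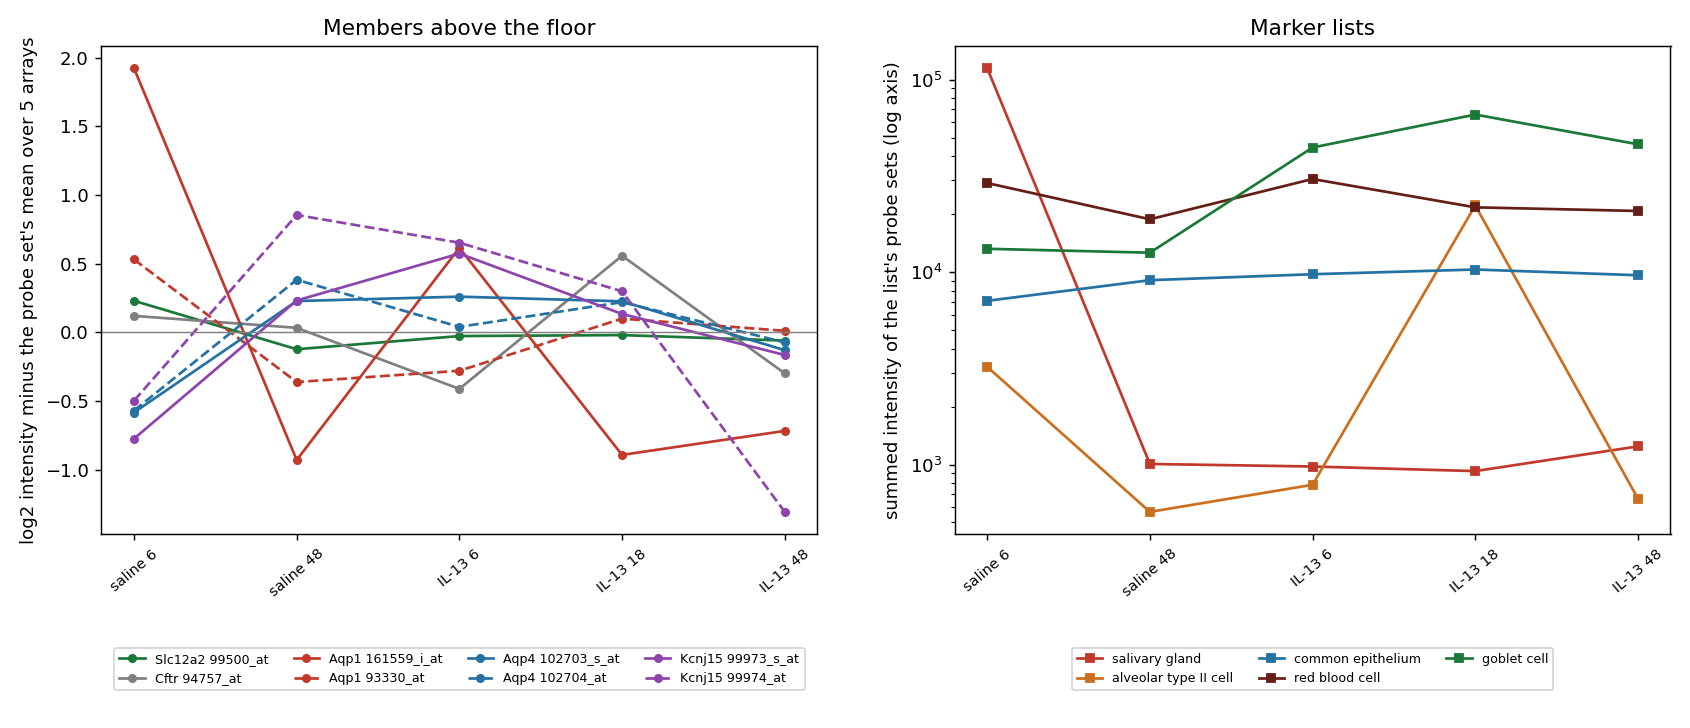
Left, log2 intensity of the 8 member probe sets above the floor, each minus its own mean over the 5 arrays; right, summed intensity of the probe sets of 5 marker lists on a log axis; the lines only join values of 1 probe set or list across separate arrays. Saline 6 is the highest array for Slc12a2 and Aqp1 and the lowest for Aqp4 and Kcnj15 99973_s_at, and it is the array with a salivary gland sum of 114699.

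Kcnj15 99974_at was the only tested member to span at least 2-fold over the arrays (4.48-fold). The probe sets most like it, by the root mean square distance of centred log2 values over the 5 arrays and among 1360 candidates, were those of Ywhaq (0.345), C1galt1c1 (0.362) and Gtse1 (0.373). Ywhaq 93016_at read 164.8, 303.3, 237.6, 177.0 and 105.6 in the order saline 6, saline 48, IL-13 6, IL-13 18 and IL-13 48. All 3 had their lowest value on IL-13 48, and 5 arrays are too few for more than a description.

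Other genes of epithelial ion and water transport, 102 in a list chosen by role, had 87 probe sets from 65 genes, of which 62 were tested. By limma 0 of the 62 passed, and 8 (12.9%) had an unadjusted p under 0.05, against 9.26% of all tested probe sets (lowest adjusted p 0.2). The mean with IL-13 was higher for 41 (66.1%, against 55.3% of all) and lower for 21, with a median log2 difference of 0.09 against 0.04 over all tested probe sets. Arrays did not overlap for 9 that were higher (14.5%, against 14.8% of all) and 6 that were lower (9.68%, against 11%). The log2 differences that follow are therefore values that did not pass. Of the 20 probe sets picked by role, 9 came nearer to 0 by over 1.5 times without saline 6, and that value is given beside each.

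Among water channels, the fat and kidney aquaglyceroporin Aqp7 differed by -0.54 (SE 0.32) and Aqp8 by -0.24, both dim, and by -0.06 and -0.04 without saline 6. None of the sodium channel's own subunits was tested. Of its regulators (12 probe sets tested, 9 higher), Prss8, a membrane protease that activates the channel, differed by 0.67 (SE 0.22) on 160566_at, with intensities of 162.7 to 249.2 on the saline arrays and 306.5 to 334.6 on the IL-13 arrays. The brighter Prss8 probe set, 100909_at, differed by 0.13, and its groups overlapped. Nedd4, a ubiquitin ligase, differed by 0.62 on 162172_f_at (-0.09 without saline 6) and by -0.10 on 93101_s_at. The kinase Wnk1, a regulator of chloride cotransport, differed by 0.31 on 94003_at (0.10 without saline 6). On the dimmer 161270_i_at Wnk1 differed by 0.25 (SE 0.69), with 1.96 in the pair at 6 and -1.55 in the pair at 48. A further Wnk1 probe set, 160739_at, was not tested and gave 1.86 at 6 and -0.17 at 48.

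Chloride channel and regulator genes (21 probe sets tested, 14 higher) held the largest value of the list. That was Clca1, which is a secreted mucus cell protein and not itself a channel, at 4.67 (SE 0.90, limma adjusted p 0.261). It read 3117 on saline 6 and 284.7 on saline 48, against 21502 to 29077 on the IL-13 arrays. Its log2 difference was 6.40 without saline 6 and 2.94 without saline 48. Each of these leaves 1 saline array and no spread within saline. These values are from 162287_r_at, whose ending r_at marks probes chosen under relaxed rules. The other Clca1 probe set, 100623_at, was dim and was not tested. It read 45.7 on saline 6 and 57.0 on saline 48, against 112.4 (IL-13 6), 156.8 (IL-13 18) and 24.6 (IL-13 48). Saline 6 and IL-13 48 lay below the floor, and the treatments overlapped. Clic4, an intracellular chloride channel-like protein, differed by 0.49 (SE 0.17) on 94254_at, by 0.27 on 94255_g_at and by -0.06 on 94256_at. The muscle chloride channel Clcn1 differed by -0.62 (-0.06 without saline 6). The potassium-chloride cotransporters Slc12a7 and Slc12a4, relatives of Slc12a2, differed by 0.05 and -0.05.

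Bicarbonate and anion exchange genes (9 probe sets tested, 7 higher) included the sodium-bicarbonate cotransporter Slc4a4 at -1.27 (SE 0.47), or -0.76 with the floor at the 40th percentile. It read 533.4 on saline 6 and 312.2 on saline 48, against 315.9 (IL-13 6), 111.4 (IL-13 18) and 138.0 (IL-13 48), so that IL-13 6 overlapped saline 48. The carbonic anhydrase Car2 differed by 0.42 and the red cell anion exchanger Slc4a1 by 0.30 (0.00 without saline 48). In the sodium-proton exchange group the 1 tested gene, Slc9a3r1, a scaffold protein that binds Cftr, differed by -0.28, with all 3 IL-13 arrays (1818 to 2219) below both saline arrays (2318 and 2458).

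In the group of the sodium pump and its relatives (7 probe sets tested), the regulatory subunit Fxyd2 differed by -1.56 (SE 0.51), and by -1.0 without saline 6. It read 1424 and 658.8 on the saline arrays and 180.1 to 497.8 on those given IL-13. Fxyd5 differed by -0.58 (SE 0.21) and Fxyd3 by 0.25 (-0.16 without saline 6). Among potassium channels (8 probe sets tested, 5 higher), the background channel Kcnk3 differed by -1.36 (SE 0.23, limma adjusted p 0.2), with intensities of 245.6 to 373.7 on saline arrays and 106.9 to 125.4 on IL-13 arrays. It exceeded the filter of 210.2 on the saline arrays alone, and with the floor at the 40th percentile it differed by -0.53 (limma adjusted p 0.532). The calcium-activated channel Kcnn4 differed by -0.84 (SE 0.29), with 1236 and 685.2 on saline arrays and 424.0 to 569.4 on IL-13 arrays. Without saline 6 it differed by -0.41 and without saline 48 by -1.26. The background channel Kcnk1 differed by 0.42 (-0.10 without saline 6). Kcnn4 is also a channel of T cells, and the summed intensity of 7 T cell probe sets moved the same way, at 6785 to 8093 on saline arrays and 1243 to 3522 on IL-13 arrays. The part of T cells in the Kcnn4 values was not tested.

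**Figure D4:**
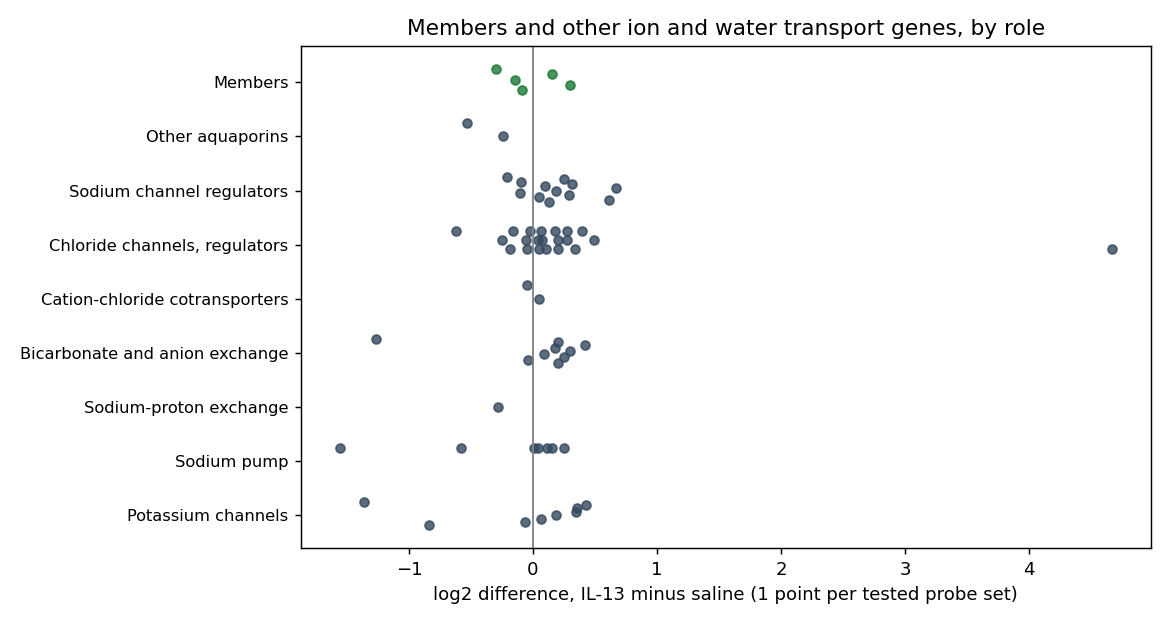
The horizontal axis is the log2 difference, IL-13 minus saline, with 1 point for each tested probe set; rows are the 5 members (green) and 62 other transport probe sets by role, with vertical scatter for legibility only. The members lie between -0.30 and 0.30, and the point at 4.67 is Clca1; no point passed the test.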

How the data were processed

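The authors deposited 1 table of intensities on a linear scale for 12488 probe sets and 5 arrays. For the software, background correction and scaling target, the sources used here give nothing. The 2% trimmed mean of the deposited values was 800.39 to 800.47 on every array, so each array had been scaled. The 66 control probe sets were left out. Of the rest, 10833 had exactly 1 gene symbol in the platform annotation, and symbols were updated through the gene number.

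Intensities were brought to 1 trimmed mean, floored and filtered, and log2 values were tested with limma 3.58.1 in R 4.3.3 (lmFit and eBayes, treatment as the only term, two-sided, 3 residual and 3.46 prior degrees of freedom, Benjamini-Hochberg over all 7811 probe sets tested). SE is the moderated standard error. Every probe set of a gene was kept. Named transport genes were up to 3 per role with the largest difference among those tested. On simulated data of these 7811 probe sets, differences of 2 on the log2 scale were recovered for 98.5% of 200. The simulated noise was normal, with moderated SDs and no array standing apart, so this checks the fit alone. It does not show that real changes of that size would pass, and Clca1 at 4.67 (limma adjusted p 0.261) did not. The members and lists were chosen with earlier results of these data known. Alternatives are named in the closing section. Figures used matplotlib 3.10.9.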

Additional observations from a re-analysis of the deposited data

Results flagged for a closer look

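Kcnj15 99974_at moved in opposite directions in the matched pairs, by at least 2-fold in each. Its log2 difference, IL-13 minus saline, was 1.15 at title number 6 and -2.16 at title number 48, where IL-13 48 lay below the floor. Whether the pairs differ was not tested, since each is 1 array against 1. Against the other saline array the log2 differences were -0.20 for IL-13 6 and -0.81 for IL-13 48, so the opposite signs rest on which saline array is the control. Of all 7811 tested probe sets, 44 (0.563%) had pairs at least 2-fold apart in opposite directions.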

How the results depend on the processing

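None of the tested members passed limma's test under any of the 13 alternatives, and 0 had an unadjusted p under 0.05 under 12 of them; without saline 48, 2 did, where 1276 of all 7811 did (16.3%). Those 2 were the probe sets of 1 gene, Aqp4. Leaving out 1 array gave log2 differences of -0.27 to 0.09 for Slc12a2, -0.59 to 0.31 for Aqp1 93330_at, -0.11 to 0.70 for Aqp4 102703_s_at, -0.32 to 0.63 for Aqp4 102704_at and -0.97 to 0.38 for Kcnj15 99974_at, and no other setting turned their sign. Fitting the values as deposited, 1 of the 13, could change little, since every array had already been scaled. Blocking on title number, which leaves out IL-13 18, gave -0.10, -0.22, 0.24, 0.08 and -0.51. Of 20 named transport probe sets, 5 changed sign without 1 array: Nedd4 162172_f_at (-0.09 to 1.32), Slc12a7 (-0.10 to 0.19, and -0.03 with the block), Slc12a4 (-0.16 to 0.07), Fxyd3 (-0.16 to 0.67) and Kcnk1 (-0.10 to 0.95). The log2 difference of Clca1 was 6.40 without saline 6 and 2.94 without saline 48, fits that leave 1 saline array. None of the 20 passed under an alternative that kept both saline arrays. Over all probe sets the 4 calls became 0 with the floor moved to the 10th or to the 40th percentile, no filter, trend and robust settings or the block (576 to 1087 with an unadjusted p under 0.05), and 1 with a filter at the 60th percentile (480 unadjusted), which left out Aqp4 102703_s_at and Kcnj15 99974_at. Leaving out 1 array gave 0 to 13 calls: 1 without saline 6, 13 without saline 48 and 0 without any one IL-13 array (460 to 657 unadjusted). The count in the pair at 6 (495) was 1413 at 1.5-fold, 169 at 3-fold and 275 against saline 48. That in the pair at 48 (210) was 708, 75 and, against saline 6, 563. The cause of these changes was not tested. Leaving out a saline array leaves 1, which is assumed to vary like the IL-13 arrays.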
